A study of Mus musculus with 4 samples.

Results

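The genes described here are 10 components of the Notch pathway, taken by symbol from the deposited table of 54446 mouse gene IDs. They are the receptors Notch1, Notch2, Notch3 and Notch4, the ligands Jag1, Jag2 and Dll1, and the target genes Hes1, Hes5 and Hey1. All 10 were found, each with a single ID, and 9 passed the filter on low counts; Hes5 did not. RNA was sequenced from tongue-derived epithelial cells of the C57BL/6 strain grown in RPMI-1640 with serum, in 2 libraries labelled as a systemic knockout of Otub2 (Otub2 KO 3 and 4) and 2 labelled wild type (Control 1 and 2). Otub2 is a deubiquitinase of the OTU family. The labels give neither the deleted part of Otub2 nor the age and number of animals, and separate animals or cultures behind the paired libraries are not stated. The p-values below therefore measure the spread between these libraries, which may be technical.

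Notch receptors sit in the cell membrane and are activated by ligands of the Jagged and Delta-like families on a neighbouring cell. Binding lets a sheddase and then gamma-secretase cut the receptor, and the freed intracellular domain enters the nucleus, where it joins the DNA-binding protein RBPJ and coactivators of the Mastermind-like family to switch on repressors of the Hes and Hey families. In stratified epithelium the pathway is known for promoting the step from basal to differentiating cells, and Jag2 is needed in mice for normal development of the tongue and palate epithelium.

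The binding letters of RBPJ were looked for in promoter windows, because Hes and Hey genes are its textbook targets. The motif was GTGGGAA on either strand (TTCCCAC as its reverse complement), in RefSeq windows of GRCm38.p6 from 250 bases before to 50 bases after each start. Windows were held for 8 of the 10 genes, the exceptions being Hes1 and Hey1, and 1 of the 8, Hes5, contained the motif. It occurred 2 times there. Of 32851 windows of the same length, 6.38% held it at least once and 0.256% held it 2 or more times. The shorter core TGGGAA, which lies inside that motif, was in 25.6% of windows and again in Hes5 alone among the 8 genes. The Hes5 sequence is shown because it carries both matches, and the Nrarp sequence because Nrarp was the target with the steadiest difference described below. The Hey2 sites are shown because Hey2, a target outside the 10 genes, also held 2 matches. Capitals mark the motif, and all sequences run 5′ to 3′ on the strand of the gene. A match is a description of letters, and RBPJ binding was not measured.
Hes5 upstream, chr4:154960673-154960922, plus strand: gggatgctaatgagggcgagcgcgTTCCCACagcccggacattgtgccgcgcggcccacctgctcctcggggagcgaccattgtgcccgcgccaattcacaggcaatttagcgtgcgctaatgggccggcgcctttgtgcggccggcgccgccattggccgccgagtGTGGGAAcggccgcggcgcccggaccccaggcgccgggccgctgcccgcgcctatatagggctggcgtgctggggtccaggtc
Nrarp upstream, chr2:25180508-25180757, plus strand: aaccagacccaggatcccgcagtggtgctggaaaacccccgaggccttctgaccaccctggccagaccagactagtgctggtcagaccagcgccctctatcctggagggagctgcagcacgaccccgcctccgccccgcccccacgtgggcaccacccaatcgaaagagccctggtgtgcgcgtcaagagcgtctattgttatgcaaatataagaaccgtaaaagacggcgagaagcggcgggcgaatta
Hes5 distal site, chr4:154960685-154960714: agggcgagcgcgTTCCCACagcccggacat
Hes5 proximal site, chr4:154960828-154960857: tggccgccgagtGTGGGAAcggccgcggcg
Hey2 distal site, chr10:30842973-30843002, minus strand: tgcgcggtggcaTTCCCACgcctctgccaa
Hey2 proximal site, chr10:30842770-30842799, minus strand: ctgggctgcagcGTGGGAAagaacctccag
In Hes5 the matches began 226 and 83 bases before the start, in opposite orientations. In Hey2 they began 207 and 4 bases before it, also in opposite orientations. Of the other targets with windows outside the 10 genes, Hes7 held 1 match, and the Hes6 and Nrarp windows held none.

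Total counts were 23017183 and 19085713 in Otub2 KO 3 and 4 and 12541345 and 11882900 in Control 1 and 2. In the deposited table, libraries 3 and 4 carry the heading OE, a common abbreviation of overexpression, while their titles say KO; the titles were followed, and Otub2 KO is used below as a label. Otub2 itself was at 19.0 and 24.0 CPM (counts scaled to a common library size by TMM factors) in the libraries labelled Otub2 KO, against 27.5 and 26.9 CPM in Control 1 and 2 (log2 fold change -0.34, SE 0.302, edgeR adjusted p = 0.485). Its gene-level count does not check the deletion. Of the keratinocyte markers, 14 of 14 had counts in every library. Their summed levels were 35876 and 50178 CPM in Otub2 KO 3 and 4 against 66357 and 61918 CPM in the controls. Otub2 KO 3 stood apart, since its 10 most abundant genes held 40.0% of gene counts, against 8.12% in Otub2 KO 4 and 12.4% and 12.0% in the controls. In the same library 12 salivary secretory markers summed to 403213 CPM, against 28.6 CPM in Otub2 KO 4 and 11.1 and 8.72 CPM in the controls. Of the 12, 3, 3, 1 and 1 were at 0 in these libraries. Mucl2 alone made up 381468 CPM of the sum in Otub2 KO 3, where Dcpp1, Dcpp2 and Dcpp3 were at 0. Cardiomyocyte markers summed to 18827 CPM there, against 35.6 CPM in Otub2 KO 4 and 66.3 and 64.2 CPM in the controls; of 12 markers 1, Nkx2-5, was at 0 in Otub2 KO 4 and none was at 0 elsewhere. In Otub2 KO 3 the salivary secretory sum thus exceeded the keratinocyte sum. Its keratinocyte markers therefore do not show that this library matches the labelled cell type. The origin of its salivary secretory and cardiomyocyte transcripts was not tested. In such bulk libraries, fewer cells of a type and less RNA per cell cannot be told apart.

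**Figure D1:**
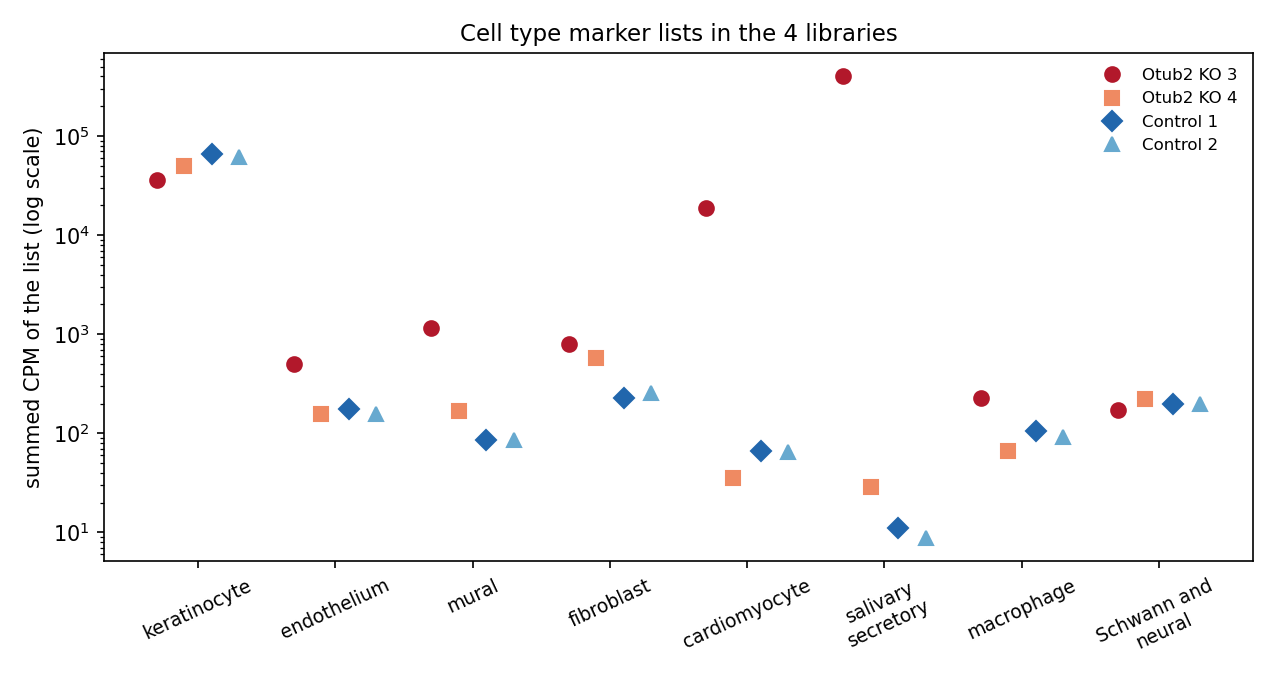
Summed CPM of 8 marker lists (log axis) in Otub2 KO 3, Otub2 KO 4, Control 1 and Control 2, 1 point per library. Otub2 KO 3 lies above the other 3 libraries for the salivary secretory, cardiomyocyte, mural, fibroblast, macrophage and endothelium lists and is the lowest for keratinocyte markers.

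None of the 9 tested Notch genes passed the test between the groups. With edgeR's quasi-likelihood test and Benjamini-Hochberg adjustment over 21916 genes, adjusted p-values of the 9 ran from 0.224 for Jag2 to 0.957 for Jag1. The background gives this little weight, since the share of all genes called was 0 percent higher and 0 percent lower. At an unadjusted p under 0.05, 0 of the 9 were higher and 0 lower, against 9.42% and 15.2% of all genes. In voom 0 of the 9 reached that unadjusted p, against 7.54% and 14.9% of all genes. In DESeq2 Jag2 did, with an unadjusted p of 0.0308 (adjusted p = 0.167), and the share of all genes was not counted there. After adjustment 0 of the 9 were called by voom (0 and 0 of all genes) or by DESeq2 (3.56% and 1.18% of all genes). Both libraries labelled Otub2 KO lay above both controls in 3 of the 9, Notch4, Jag2 and Hey1, and below both in 1, Notch3. Over all genes tested these shares were 26.9% and 33.1%. The split of the 9 depended on the scaling, with 0 above and 4 below under upper-quartile scaling and 1 above and 2 below with library size only. The shares of all genes moved too, to 10.4% above and 48.5% below under upper-quartile scaling and 9.17% and 43.0% with library size only. Among 11788 genes with a mean of at least 5 CPM the shares with TMM were 42.7% and 12.0%, where 8 of the Notch genes had 2 above and 1 below. The median log2 fold change of the 9 was 0.12, that of all genes 0.09, and that of the more abundant genes 0.41. Between the groups, Notch3, Notch4 and Jag2 kept their direction in the 13 alternatives run and Hey1 in the 12 that tested it, while the sign of Notch1, Notch2, Jag1, Dll1 and Hes1 turned in some.

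The receptor with the largest difference was Notch3, a receptor of suprabasal keratinocytes and of the mural cells around arteries (ENSMUSG00000038146, chr17:32120820-32166852, minus strand, GRCm38). It was at 133 and 64.2 CPM in Otub2 KO 3 and 4 and at 145 and 190.2 CPM in Control 1 and 2. Both libraries labelled Otub2 KO were below both controls, Otub2 KO 4 by over 2-fold against either and Otub2 KO 3 so narrowly that it no longer was when features without a gene were kept in the scaling. The means were 98.4 ± 48.3 CPM in Otub2 KO and 168 ± 31.9 CPM in Control (SD, n = 2 each), with -0.77 as the log2 fold change (SE 0.421, 95% interval -1.84 to 0.30, edgeR adjusted p = 0.293). The direction was negative in all 13 alternatives. Set alone against the controls, Otub2 KO 4 had a log2 fold change of -1.36 (SE 0.282, edgeR adjusted p = 1.77e-05) and Otub2 KO 3 one of -0.34 (SE 0.270, adjusted p = 0.324). These fits take the single library to vary like the 2 controls, both fits share the controls, and 18.8% of all genes were called higher and 22.0% lower for Otub2 KO 4, 22.4% and 12.7% for Otub2 KO 3. Keratinocyte markers had 7 of 14 below both controls and 2 above, at the summed levels given before. Mural markers summed to 1145 and 169.7 CPM in Otub2 KO 3 and 4 and to 86.1 and 85.6 CPM in the controls, with 6 of 10 tested members above both controls, 0 below and none at 0. Over all genes tested, 26.9% lay above both controls and 33.1% below, or 42.7% and 12.0% at a mean of at least 5 CPM. The part of either marker list in the Notch3 level was not tested.

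Notch1 and Notch2, the receptors best known for driving epidermal differentiation, were not separated between the groups. Notch1 (ENSMUSG00000026923, chr2:26457903-26516663, minus strand) was at 87.0 and 96.7 CPM in Otub2 KO 3 and 4 and at 51.2 and 98.1 CPM in the controls. The controls differed from each other more than the libraries labelled Otub2 KO did, and the groups overlapped (log2 fold change 0.30, SE 0.374, 95% interval -0.65 to 1.25, edgeR adjusted p = 0.618). Notch2 (ENSMUSG00000027878, chr3:98013527-98150361, plus strand) was at 81.1 and 109 CPM in Otub2 KO 3 and 4 and at 77.5 and 97.0 CPM in the controls. Its groups overlapped too (0.12, SE 0.286, 95% interval -0.60 to 0.85, adjusted p = 0.794).

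Notch4, a receptor known mainly from vascular endothelium (ENSMUSG00000015468, chr17:34564268-34588503, plus strand), was at 22.2 and 12.4 CPM in Otub2 KO 3 and 4 and at 11.8 and 11.6 CPM in the controls. Only Otub2 KO 3 stood clear, at close to 2 times either control. The log2 fold change was 0.56 (SE 0.424, 95% interval -0.52 to 1.64, edgeR adjusted p = 0.418). Alone against the controls, Otub2 KO 3 gave 0.92 (SE 0.290, adjusted p = 0.00658) and Otub2 KO 4 gave 0.11 (SE 0.306, adjusted p = 0.784). The call in Otub2 KO 3 was lost with upper-quartile scaling (0.42, edgeR adjusted p = 0.236), library size only (0.018, adjusted p = 0.959) and a mean CPM of at least 5 (0.64, adjusted p = 0.0778). In these settings Otub2 KO 4 turned to -0.37, -0.030 and -0.28. Relative to the median of all genes, Otub2 KO 3 was at 1.01 with TMM, upper-quartile scaling and library size only. With the CPM filter it was at 0.66. Endothelial markers summed to 498 and 156 CPM in Otub2 KO 3 and 4 and to 178 and 156 CPM in the controls. Of 14 such markers 4 lay above both controls in both libraries, 0 below, and none was at 0 in any library; their part in the Notch4 level was not tested.

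**Figure D2:**
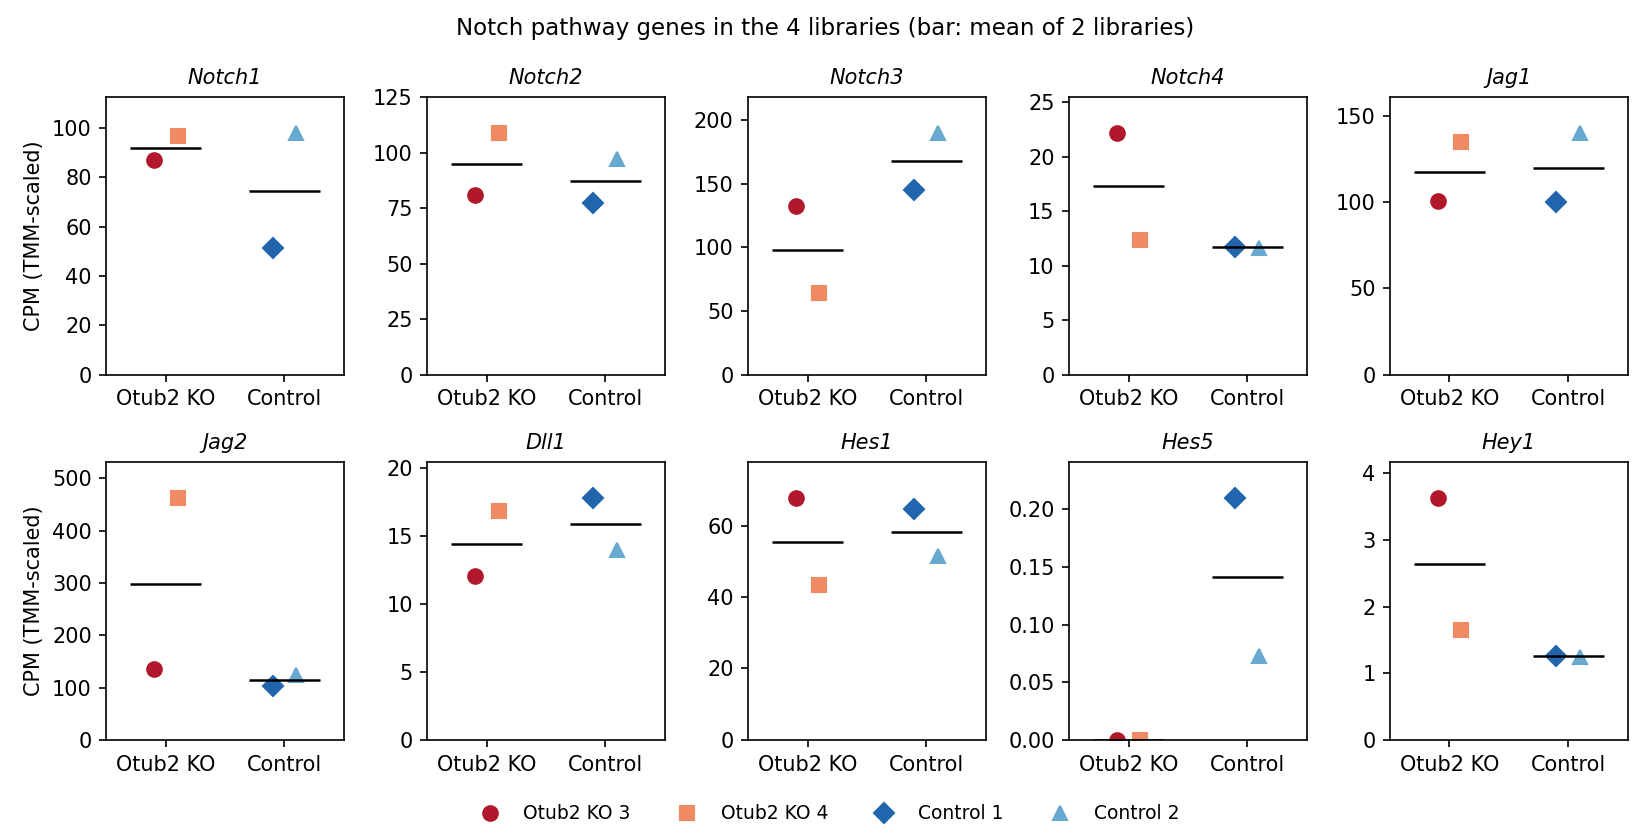
TMM-scaled CPM of the 10 Notch genes in each library, Otub2 KO left and Control right in each panel, with a bar at the mean of the 2 libraries and axes that start at 0. Jag2 stands out in Otub2 KO 4 at 462 CPM, Notch3 is lowest there at 64.2 CPM, and Hey1 and Notch4 are highest in Otub2 KO 3.

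Among the ligands, Jag2 showed the widest gap. Jag2 (ENSMUSG00000002799, chr12:112907819-112929776, minus strand) was at 135 and 462 CPM in Otub2 KO 3 and 4 and at 103 and 125 CPM in the controls. Otub2 KO 4 was more than 3 times higher than any other library, while Otub2 KO 3 was just above Control 2. The means were 299 ± 231 CPM in Otub2 KO and 114 ± 15.1 CPM in Control (SD, n = 2 each), with 1.39 as the log2 fold change (SE 0.607, 95% interval -0.15 to 2.93, edgeR adjusted p = 0.224). Set alone against the controls, Otub2 KO 4 had a log2 fold change of 2.04 (SE 0.254, adjusted p = 7.71e-14) and Otub2 KO 3 one of 0.24 (SE 0.262, adjusted p = 0.495). The value for Otub2 KO 3 was -0.66 with scaling by library size only and -0.26 with upper-quartile scaling. The placement of that library above the controls thus depended on the scaling. The median of all genes was -0.99 and -0.59 in these 2 settings, and relative to it Jag2 was at 0.33 and 0.34. Over the 13 alternatives, left-out libraries included, the log2 fold change ran from 0.24 to 2.04 and was positive in each.

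Jag1, the other Jagged-family ligand (ENSMUSG00000027276, chr2:137081456-137116644, minus strand), was at 100.5 and 135 CPM in Otub2 KO 3 and 4 and at 99.9 and 140.3 CPM in the controls. Each group had a low and a high library, both groups spanned the same levels, and the log2 fold change was -0.03 (SE 0.310, 95% interval -0.82 to 0.76, edgeR adjusted p = 0.957). Dll1, a Delta-like ligand (ENSMUSG00000014773, chr17:15367354-15376872, minus strand), was at 12.0 and 16.8 CPM in Otub2 KO 3 and 4 and at 17.8 and 14.0 CPM in the controls. Otub2 KO 3 was the lowest library and Otub2 KO 4 lay between the controls (-0.14, SE 0.377, 95% interval -1.10 to 0.82, adjusted p = 0.821).

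Of the target genes, Hes1 was well expressed in all 4 libraries. Hes1, a transcriptional repressor (ENSMUSG00000022528, chr16:30064384-30067796, plus strand), was at 67.7 and 43.3 CPM in Otub2 KO 3 and 4 and at 64.8 and 51.6 CPM in the controls. The libraries labelled Otub2 KO were the highest and the lowest of the 4, on either side of the controls, and the log2 fold change was -0.07 (SE 0.325, 95% interval -0.89 to 0.76, edgeR adjusted p = 0.902). Hey1, a repressor best known from vessels and heart (ENSMUSG00000040289, chr3:8663359-8667256, minus strand), had 52 and 34 counts in Otub2 KO 3 and 4 and 18 and 17 in the controls. These counts correspond to 3.63 and 1.65 CPM in Otub2 KO 3 and 4, against 1.26 and 1.25 CPM in the controls, with both libraries labelled Otub2 KO above both controls (1.06, SE 0.574, 95% interval -0.40 to 2.52, adjusted p = 0.289). Alone against the controls, Otub2 KO 3 gave 1.52 (SE 0.397, adjusted p = 0.000703) and Otub2 KO 4 gave 0.42 (SE 0.444, adjusted p = 0.445). The Hey1 call in Otub2 KO 3 was lost with library size only (0.63, edgeR adjusted p = 0.162), Otub2 KO 4 turned to -0.058 with upper-quartile scaling, and Hey1 was not tested at a mean CPM of at least 5. The library with the higher Hey1 is the one with the highest sums for the salivary secretory, cardiomyocyte, mural, fibroblast, macrophage and endothelium markers. The part of any of these lists in the Hey1 level was not tested.

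Hes5, a target best known from neural progenitors (ENSMUSG00000048001, chr4:154960923-154962371, plus strand), was at the edge of detection. It had 0 and 0 counts in Otub2 KO 3 and 4 and 3 and 1 in Control 1 and 2. A count of 0 allows up to 3 counts, or 0.209 and 0.145 CPM in Otub2 KO 3 and 4, and 3 counts are 0.210 and 0.220 CPM in the controls. A difference was not detectable at this depth, and these limits cover counting error only.

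**Figure D3:**
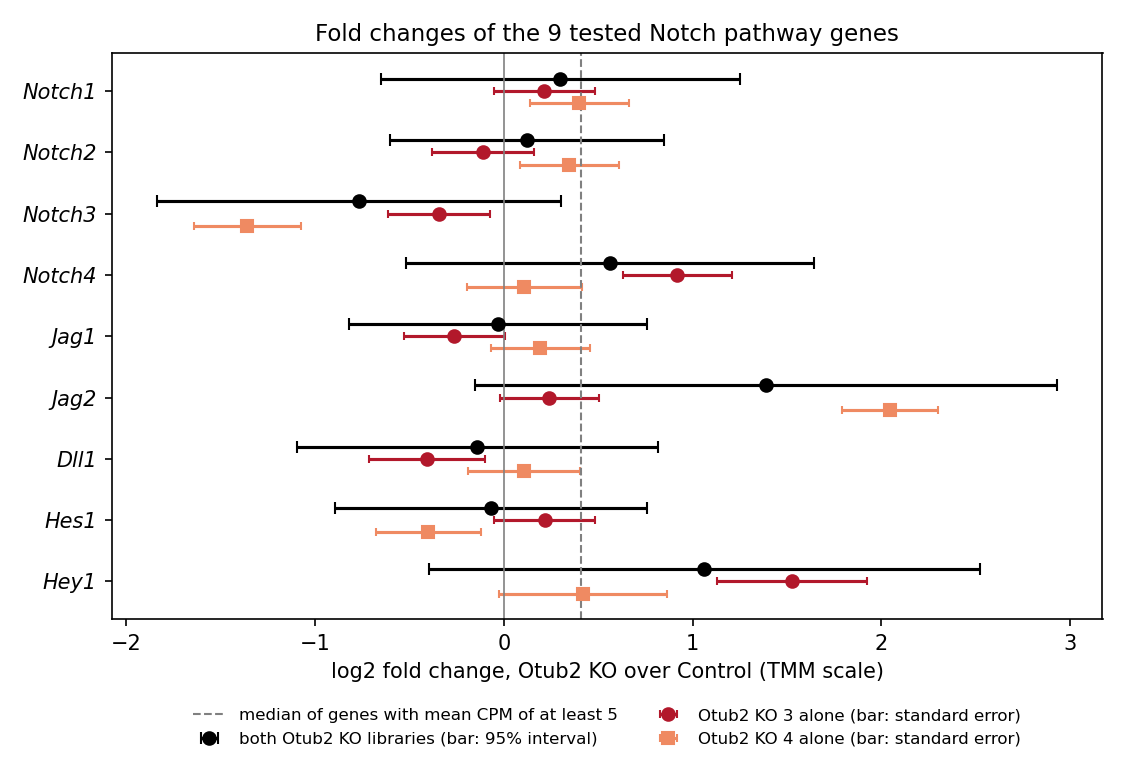
Log2 fold change of the 9 tested Notch genes, Otub2 KO over Control on the TMM scale, for both libraries together (black, 95% interval) and for Otub2 KO 3 and Otub2 KO 4 alone (red and orange, standard error), with the median of the more abundant genes, 0.41, as a dashed line. All 9 black intervals include 0, and Jag2 and Notch3 in Otub2 KO 4 and Hey1 and Notch4 in Otub2 KO 3 lie farthest from it.

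Levels were compared between genes per length, in the FPKM deposited by the authors (fragments per kilobase of exon, scaled to sequencing depth). In the controls the order by mean was Hes1, Notch3, Jag1, Jag2, Notch2, Notch1, Dll1, Notch4, Hey1 and Hes5, from 32.7 to 0.119 FPKM. Notch3, at 20.5 and 27.2 FPKM, overlapped Jag1, at 19.5 and 27.7 FPKM; Jag1 overlapped Jag2, and Notch1 overlapped Dll1, while the other neighbours were apart. In the libraries labelled Otub2 KO the order was Jag2, Hes1, Jag1, Notch3, Notch2, Notch1, Dll1, Notch4, Hey1 and Hes5. There Jag2 spanned 12.1 to 71.9 FPKM in Otub2 KO 3 and 4 and overlapped Hes1, which was at 20.7 and 23.0 FPKM, and every pair from Jag2 to Dll1 overlapped its neighbour except Jag1 and Notch3. Dll1, Notch4, Hey1 and Hes5 kept the last 4 places in both groups, in this order. FPKM is scaled to total depth, and 10 genes held 40.0% of the gene counts of Otub2 KO 3, which lowers its other FPKM values. On the TMM scale Hes1 was at 67.7 and 43.3 CPM and Jag1 at 100.5 and 135 CPM in Otub2 KO 3 and 4. The ranges and overlaps in the libraries labelled Otub2 KO therefore depend on this scaling.

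Shares inside a library do not depend on the scaling between libraries, so the makeup of receptors and ligands was also compared. Notch3 made up 50.1% and 30.2% of the summed FPKM of the 4 receptors in Otub2 KO 3 and 4, against 59.6% and 57.7% in the controls. It was the most abundant receptor in Otub2 KO 3 and in both controls, whereas in Otub2 KO 4 Notch2 was, at 38.3%. The Notch3 share was lower by 18.5 percentage points in the mean (40.2% in Otub2 KO and 58.6% in Control, difference -18.5), without overlap between the groups. Notch1 took 18.6% and 25.7% in Otub2 KO 3 and 4, against 11.9% and 16.8% in the controls, and Notch4 took 8.38% and 5.82%, against 4.82% and 3.53% in the controls, both without overlap. Notch2 took 22.9% and 38.3% in Otub2 KO 3 and 4, against 23.7% and 22.0% in the controls, with overlap. Among the 3 ligands, Jag2 took 49.1% and 71.0% of the summed FPKM in Otub2 KO 3 and 4, against 41.0% and 39.6% in the controls. Jag1 took 43.7% and 24.7% in Otub2 KO 3 and 4, against 47.3% and 53.1% in the controls. Dll1 took 7.21% and 4.26% in Otub2 KO 3 and 4, against 11.6% and 7.32% in the controls. The groups did not overlap for any of the 3 ligands, though for Dll1 only by 7.21% in Otub2 KO 3 against 7.32% in Control 2. Shares in a set add up to the whole in each library, so a higher share of 1 gene lowers the others. They are therefore not separate results, and the log2 fold change of Jag1 itself was -0.03. An exact two-sided permutation test of 2 against 2 libraries cannot give a p below 0.333, the value found for all of these 7 shares but that of Notch2 (p = 0.667), so none can pass a threshold of 0.05. Without Otub2 KO 4 the mean differences shrank to -8.49 points for Notch3 and 8.85 points for Jag2, and without Otub2 KO 3 they were -28.4 and 30.7 points.

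**Figure D4:**
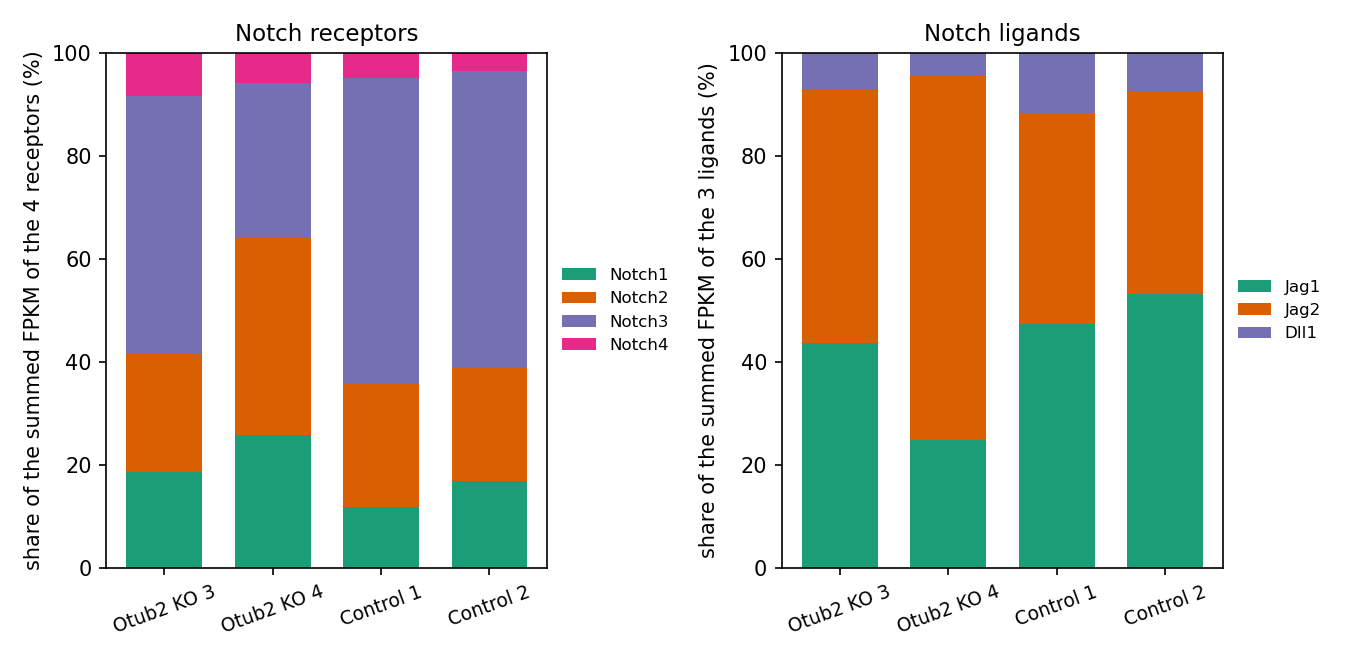
Share of each gene in the summed FPKM of the 4 receptors (left) and the 3 ligands (right), as stacked percentages, 1 bar per library with Otub2 KO left of Control. Notch3 shrinks to 30.2% and Jag2 grows to 71.0% in Otub2 KO 4, and Otub2 KO 3 lies between that library and the controls for both.

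The rest of the pathway was read from 52 further genes in 6 lists by role, all of them found and tested. In the edgeR fit 0 of the 52 passed in either direction, where 0 percent of all genes did. At an unadjusted p under 0.05, 2 were higher and 4 lower, against 9.42% and 15.2% of all genes. DESeq2 called 0 higher and 3 lower, Nrarp, Dll3 and Dlk1, and gave no adjusted p for 3; it called 3.56% of all genes higher and 1.18% lower. Both libraries labelled Otub2 KO lay above both controls in 14 of the 52 and below in 11, where 26.9% and 33.1% of all genes did so. The median log2 fold change of the 52 was 0.30, against 0.09 over all genes. The counts by role below are read against the same shares, or against 42.7% above and 12.0% below among genes with a mean of at least 5 CPM.

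The steadiest difference was in a target. Nrarp, an ankyrin-repeat protein that Notch induces and that restrains the Notch complex (ENSMUSG00000078202, chr2:25180758-25183339, plus strand), had 200 and 277 counts in Otub2 KO 3 and 4 and 581 and 573 in the controls. Its level was 14.0 and 13.4 CPM in Otub2 KO 3 and 4, against 40.7 and 42.0 CPM in the controls, about the same in both libraries of each group and close to 3-fold apart between them. The log2 fold change was -1.59 (SE 0.281, 95% interval -2.31 to -0.88), with an adjusted p of 0.166 in edgeR and 0.00454 in DESeq2. Alone against the controls, Otub2 KO 3 gave -1.57 (SE 0.307, edgeR adjusted p = 3.01e-06) and Otub2 KO 4 gave -1.60 (SE 0.308, adjusted p = 3.41e-06). Over all alternatives the value stayed between -2.06 and -1.34. With all 4 libraries kept, the adjusted p ran from 0.00454 in DESeq2 to 0.249 in edgeR, and only DESeq2 called the gene. It was not called with a control left out. Of the 6 other target genes outside the 10, Hes3 and Hes7 also lay below both controls, each with at most 22 counts in any library. Hes6, a Hes-family factor that counteracts Hes1, was at 21.4 and 13.4 CPM in Otub2 KO 3 and 4 and at 10.2 and 10.3 CPM in Control 1 and 2 (0.76, SE 0.400, adjusted p = 0.281). Heyl, a Hey-family repressor of vascular and muscle cells, was at 8.66 and 1.69 CPM in Otub2 KO 3 and 4, against 1.82 and 2.42 CPM in Control 1 and 2, and Hey2, a Hey-family repressor of the heart, had 38 and 4 counts in Otub2 KO 3 and 4, against 11 and 5 in the controls. Hes2 had 39 and 12 counts in Otub2 KO 3 and 4, against 15 and 18 in the controls. Heyl, Hey2 and Hes2 were high in Otub2 KO 3 alone, as were genes of other lists, such as Dtx4 below, Dtx1 and Kat2b. Dtx1 was at 6.28 and 0.823 CPM in Otub2 KO 3 and 4, against 2.66 and 2.71 CPM in the controls. Kat2b was at 88.5 and 19.5 CPM in Otub2 KO 3 and 4, against 30.9 and 25.5 CPM in the controls. That library was also the highest for the salivary secretory, cardiomyocyte, mural, fibroblast, macrophage and endothelium marker lists. A link to any of these lists was not tested. Heyl, Hey2, Hes2, Dtx1 and Kat2b were added here after their values were seen.

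Of the 4 ligands outside the 10, 3 lay below both controls, as did 33.1% of all genes. Dll3, a divergent Delta-like protein that does not activate receptors on other cells, had 9 and 8 counts in Otub2 KO 3 and 4 and 43 and 36 in the controls (log2 fold change -2.48, SE 0.513, adjusted p = 0.166 in edgeR and 0.0356 in DESeq2). Dlk1, a Delta-like protein without the domain that binds Notch in classical ligands, was at 3.35 and 3.05 CPM in Otub2 KO 3 and 4, against 9.52 and 8.79 CPM in Control 1 and 2 (-1.51, SE 0.425, adjusted p = 0.166 in edgeR and 0.0439 in DESeq2). Dll4, the ligand of sprouting vessels, was at 3.77 and 6.19 CPM in Otub2 KO 3 and 4, against 6.86 and 6.88 CPM in Control 1 and 2 (-0.46, SE 0.470, edgeR adjusted p = 0.542). Dlk2, the paralog of Dlk1, went the other way in a single library, with 3.07 CPM in Otub2 KO 3 and 31.0 CPM in Otub2 KO 4 against 5.81 and 4.76 CPM in the controls (1.69, SE 1.04, edgeR adjusted p = 0.336).

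Of 5 glycosyltransferases that modify the receptors, 3 lay above both controls and 1 below, against 26.9% and 33.1% of all genes, and 0 passed the edgeR test. Pofut1, which adds O-fucose to Notch, was at 26.0 and 26.4 CPM in Otub2 KO 3 and 4 against 18.0 and 12.8 CPM in Control 1 and 2 (log2 fold change 0.77, SE 0.335, edgeR adjusted p = 0.224). Lfng, a Fringe enzyme that extends O-fucose, was at 13.8 and 56.8 CPM in Otub2 KO 3 and 4, against 13.5 and 15.8 CPM in Control 1 and 2, so that only Otub2 KO 4 was high, as for Jag2 (1.27, SE 0.687, adjusted p = 0.290). Rfng and Poglut1, a second Fringe and the O-glucosyltransferase, had log2 fold changes of 0.61 and 0.42 (adjusted p = 0.294 and 0.373 in edgeR). In the list of sheddases and gamma-secretase 1 of 9 lay above both controls and 1 below. The sheddase Adam17 was at 56.5 and 112 CPM in Otub2 KO 3 and 4, against 43.5 and 55.3 CPM in Control 1 and 2 (0.77, SE 0.401, adjusted p = 0.275), and the median of the list was 0.06.

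In the nuclear complex 5 of 13 lay above both controls and 1 below. Rbpjl, an RBPJ-like factor of the pancreas, had 15 and 7 counts in Otub2 KO 3 and 4, against 41 and 29 in the controls (log2 fold change -1.88, SE 0.668, edgeR adjusted p = 0.188). Spen, a corepressor of RBPJ, and the coactivator Maml1 had log2 fold changes of 0.66 and 0.52 (adjusted p = 0.271 and 0.313 in edgeR). Among 14 genes of endocytosis and turnover 4 lay above and 2 below. Numb, which antagonises Notch by promoting its endocytosis, was at 57.3 and 46.1 CPM in Otub2 KO 3 and 4 and at 31.8 and 32.9 CPM in the controls (0.67, SE 0.263, adjusted p = 0.202). Dtx3l, a Deltex-family ubiquitin ligase, was at 27.9 and 14.6 CPM in Otub2 KO 3 and 4, against 10.3 and 9.16 CPM in Control 1 and 2 (1.13, SE 0.444, adjusted p = 0.203). Dtx4, another of that family, was at 17.6 and 2.56 CPM in Otub2 KO 3 and 4, against 3.78 and 3.59 CPM in Control 1 and 2, high in Otub2 KO 3 alone.

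Genes patterned like the most abundant member of each role were found by the Euclidean distance of centred log2 CPM over the 4 libraries. The search covered 11266 genes with a mean of at least 5 CPM, with symbols of the Gm-number and Rik kind left out. The nearest to Notch3 were Fam83a, Map2 and Mdga1 (distance 0.0751, 0.108 and 0.153). Jag2 was closest to Slc7a1, Cenpe and Tpx2 (0.0925, 0.108 and 0.111), and Slc7a1 was at 113 and 359 CPM in Otub2 KO 3 and 4 against 79.6 and 100.1 CPM in the controls. Hes1 was closest to Stx6, Ttc39c and Dnajc19 (0.0579, 0.0883 and 0.0900). With 4 libraries, a likeness of this kind is a description of these libraries.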

How the data were processed

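RNA-seq libraries of tongue-derived epithelial cells were analysed, 2 labelled Otub2 KO and 2 Control. Per the file headers, the authors deposited a raw count and an FPKM value for each gene and library; the implied FPKM lengths equal the summed exon length in GENCODE M21 (GRCm38) for 9 of the 10 genes. HISAT2, DESeq and GRCh38, a human build, are named in the submitters' processing notes without version; for the counting tool and strand setting: not given in the sources used here. The 14785 features without a gene were left out (1.29% and 0.914% of counts in Otub2 KO 3 and 4, 2.84% and 2.82% in the controls).

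Counts were tested with edgeR 4.0.16 (quasi-likelihood, TMM, filterByExpr, Benjamini-Hochberg at 0.05) in R 4.3.3, checked on simulated data; standard errors come from the F statistic. DESeq2 1.42.0, voom of limma 3.58.1, 4 other scalings, other filters and leaving out each library were alternatives. The 10 genes, the lists and the tests were chosen with earlier results of these data known. All 10 genes are named; each pathway list names up to 4 genes with the smallest p, of which 1 is not reported here. No libraries were duplicates (chi-square per degree of freedom 597 within Otub2 KO, 11.5 within Control).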

Additional observations from a re-analysis of the deposited data

How the results depend on the processing

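The scaling set the sign of small differences. The median log2 fold change of all genes was 0.09 with TMM, -0.38 with upper-quartile scaling and -0.35 with library size only. Relative to it, over 5 scalings Notch3 stayed between -0.99 and -0.86, Jag2 between 1.30 and 1.49, Hey1 between 0.84 and 0.98 and Notch4 between 0.37 and 0.48. Relative to the median over the more abundant genes (5 CPM or more), Notch3 stayed between -1.31 and -1.17, Jag2 between 0.98 and 1.17, Hey1 between 0.52 and 0.66 and Notch4 between 0.047 and 0.16. Between the groups, Notch3, Notch4 and Jag2 kept their direction in 13 of 13 alternatives and Hey1 in 12 of 12. For a single library the sign of Jag2 (Otub2 KO 3), Notch4 and Hey1 (Otub2 KO 4) turned with the scaling. The median of all genes for Otub2 KO 3 alone was -0.096 with TMM, -0.59 with upper-quartile scaling and -0.99 with library size only. Relative to it, Notch4 was at 1.01 and Hey1 at 1.62 in each of these settings, and Jag2 between 0.33 and 0.34. Calls given below with a library left out are not relative to the median of all genes. Causes of the values below were not tested.

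Genes called higher and lower numbered 37 and 1433 with library size only, 780 and 258 with DESeq2 and 6 and 3 without a filter, and ran from 0 to 5243 and from 0 to 5097 with a library left out. In the last case 0 to 2 of the 10 Notch genes were called higher and 0 to 1 lower, and 0 to 14 and 0 to 9 of the other pathway genes. Of those others 2 were lower with library size only and 3 with DESeq2. The next counts carry the share of all genes tested in the same setting in brackets. Notch genes above both controls numbered 0 with upper-quartile scaling (10.4%) and 1 with library size only (9.17%). They numbered 0 with a mean CPM of at least 5 (23.0%) and 3 to 6 with a library left out (32.6% to 40.8%). Those below numbered 4 with upper-quartile scaling (48.5%), 2 with library size only (43.0%) and 2 without a filter (29.3%). They numbered 2 with a mean CPM of at least 5 (24.3%) and 0 with unnamed features kept (42.7% of all features). With a library left out, 2 to 3 were below (37.6% to 47.6%). Each library was also set alone against the controls in alternatives chosen after seeing the data. For Otub2 KO 3 the Notch genes ran from -0.91 (Dll1) to 1.03 (Hey1) with upper-quartile scaling. With library size only they ran from -1.31 (Dll1) to 0.63 (Hey1). Relative to the median of all genes, Dll1 was at -0.32 and Hey1 at 1.62 in either setting. For Otub2 KO 4 they ran from -1.83 (Notch3) to 1.57 (Jag2) with upper-quartile scaling, or -1.22 to 2.18 relative to that median.

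The sign turned as follows. Notch1 was at -0.16 with upper-quartile scaling, -0.12 with library size only and -0.015 with the CPM filter, and Notch2 at -0.34, -0.27 and -0.20 in the same settings. Jag1 was at 0.027 with RLE scaling and with DESeq2, 0.10 without a filter and 0.23 with unnamed features kept. Dll1 was at 0.12 with unnamed features, and Hes1 at 0.18 with them and 0.055 without a filter. With a library left out, Notch1 ran from -0.085 to 0.87 (negative without Control 1), Notch2 from -0.11 to 0.35 (negative without Otub2 KO 4 or Control 1), Jag1 from -0.26 to 0.27 (positive without Otub2 KO 3 or Control 2), Dll1 from -0.41 to 0.11 (positive without Otub2 KO 3 or Control 1) and Hes1 from -0.40 to 0.22 (positive without Otub2 KO 4 or Control 1). All 7 receptor and ligand shares kept their sign. The Notch2 share did so only barely, since its mean difference fell from 7.71 points to 0.025 points without Otub2 KO 4. No paired analysis was possible because the groups share no replicate numbers.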

Other observations

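Several Notch genes overlap other annotated genes, and without a known strand setting their reads cannot be told apart. The antisense gene Gm17276, which shares 488 exon bases with Notch3, had 21 and 4 counts in Otub2 KO 3 and 4 and 25 and 25 in Control 1 and 2, against 1326 to 2597 counts for Notch3. The opposite-strand 0610009E02Rik shares 1068 exon bases with Notch1 and had 18 and 11 counts in Otub2 KO 3 and 4, against 8 and 7 in the controls. A930024N18Rik shares 867 exon bases with Dll1 on the opposite strand and had 10 and 22 counts in Otub2 KO 3 and 4, against 23 and 36 in the controls. Gm20421, antisense to Hes5 over 433 exon bases, had 0 and 0 counts in Otub2 KO 3 and 4, against 0 and 1 in the controls.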
